A study of Rattus norvegicus with 20 samples.

Results

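Messenger RNA levels of 6 adrenergic receptors (Adra1a, Adra1b, Adra1d, Adra2a, Adrb1 and Adrb3) and of both monoamine oxidases (Maoa and Maob) were followed in the kidney cortex and left ventricle of hypertensive rats. The 8 genes were picked by name from a table of 30560 genes, and each had 1 row. The animals were 10 male rats, labelled WT for genotype and of a strain the labels do not name, which were fitted with a telemeter at 8 weeks of age and then ate a diet with 4% NaCl for 3 weeks. Minipumps under the skin delivered vehicle to 5 rats (animals RB030 to RB034) and Maresin 1 (MaR1), a lipid mediator derived from docosahexaenoic acid, to the other 5 at doses of no more than 1.3 µg/kg/day (RB035 to RB039). Each rat gave 1 kidney and 1 heart library, so the 20 libraries form 4 groups of 5 (kidney vehicle, kidney MaR1, heart vehicle, heart MaR1). High salt was common to every group, and no group on a normal diet was analysed here.

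Noradrenaline from sympathetic nerve endings and adrenaline from the adrenal medulla act on adrenergic receptors. Alpha-1 receptors act through Gq and phospholipase C and constrict vessels, alpha-2 receptors act through Gi and lower cyclic AMP, and beta receptors act through Gs and raise it. In the heart, beta-1 receptors raise rate and force. In the kidney, catecholamines promote sodium reabsorption, vasoconstriction and, through beta-1 receptors, renin release. The monoamine oxidases sit on the outer mitochondrial membrane and deaminate amines. Monoamine oxidase A prefers noradrenaline and serotonin, and monoamine oxidase B prefers phenylethylamine.

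Positions are those of the deposited table; its genome build was not given in the sources used. Adra1a (ENSRNOG00000009522) lies at chr15:40832534-40927500 on the plus strand, Adra1b (ENSRNOG00000060087) at chr10:28255025-28312919 on the minus strand and Adra1d (ENSRNOG00000021256) at chr3:118793346-118809354 on the minus strand. Adra2a (ENSRNOG00000047545) lies at chr1:253060218-253064365, Adrb1 (ENSRNOG00000017002) at chr1:255771597-255807259 and Adrb3 (ENSRNOG00000012674) at chr16:64841788-64844552, each on the plus strand. Maob (ENSRNOG00000029778) lies at chrX:5907266-6011003 on the plus strand and Maoa (ENSRNOG00000002848) at chrX:6030795-6099593 on the minus strand. The 3′ ends of the oxidase genes thus face each other with 19791 bases between them. None of the 8 genes overlaps another gene of the table, so reads of an overlapping or antisense gene do not enter their values as far as this annotation goes.

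Promoter sequences from RefSeq (build GRCr8, 250 bases before to 50 after the annotated start) were found for 6 of the 8 genes; Adra1a and Adrb3 had no entry. The 3 shown here belong to the neighbouring oxidase genes, whose levels took different courses between the organs, and to Adra1b, the receptor gene of the 8 with the largest log2 difference between heart and kidney among those past the level filter. They are printed 5′ to 3′ on the strand of the gene. Capitals mark the GC box, spelled GGGCGG on one strand and CCGCCC on the other. They are, in order, chrX:8681323-8681622 (minus strand), chrX:8490155-8490454 (plus strand) and chr10:28814298-28814597 (minus strand).
Maoa: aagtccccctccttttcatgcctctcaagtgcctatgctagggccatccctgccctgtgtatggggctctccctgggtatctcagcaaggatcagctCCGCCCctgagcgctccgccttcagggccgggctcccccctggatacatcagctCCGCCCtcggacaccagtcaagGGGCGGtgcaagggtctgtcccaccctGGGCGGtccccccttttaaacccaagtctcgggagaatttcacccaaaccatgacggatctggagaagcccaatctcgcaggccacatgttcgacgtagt
Maob: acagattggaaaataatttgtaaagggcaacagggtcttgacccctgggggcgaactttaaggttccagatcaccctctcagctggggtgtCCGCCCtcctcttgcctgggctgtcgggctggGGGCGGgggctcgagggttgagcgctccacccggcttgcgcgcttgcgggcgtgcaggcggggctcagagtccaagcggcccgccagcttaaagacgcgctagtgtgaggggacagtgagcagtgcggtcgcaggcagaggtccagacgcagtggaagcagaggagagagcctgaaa
Adra1b: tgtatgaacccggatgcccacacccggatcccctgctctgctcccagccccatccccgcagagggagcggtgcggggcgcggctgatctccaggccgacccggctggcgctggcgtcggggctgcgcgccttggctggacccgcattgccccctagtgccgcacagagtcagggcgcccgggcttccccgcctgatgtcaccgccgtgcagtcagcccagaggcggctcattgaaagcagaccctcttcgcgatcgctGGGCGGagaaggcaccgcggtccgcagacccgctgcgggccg

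The window of Maoa held 4 GC boxes, that of Maob 2 and that of Adra1b 1, while those of Adra1d, Adra2a and Adrb1 held 0. At least 1 GC box was found in 34.9% of the 27457 RefSeq promoter windows of the same length, and 3 or more in 9.72%. G and C made up 61.0% of the Maoa window, 63.0% of the Maob window and 72.0% of the Adra1b window, against a median of 52.3% over all windows. A CCAAT box (CCAAT, in 37.7% of windows) occurred 1 time each in the windows of Maoa, Maob and Adrb1. The cyclic AMP response motif TGACGT (8.22% of windows), the E box CACGTG (6.65%), which shares ACGT with it, and the TATA box TATAAA (14.3%) were not present in these 6 windows. Both strands were searched for each motif, and a match is a run of letters, not a shown binding site.

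Levels are FPKM, that is, fragments divided by the length of the gene and the size of the library. The libraries held 19383232 to 30342034 assigned fragments, and 1 FPKM of a gene of 1 kb stood for 19.7 to 34.9 fragments. Genes with a mean of at least 1 FPKM in the libraries compared were tested with limma on log2(FPKM + 0.5), and a gene passed at a Benjamini-Hochberg adjusted p under 0.05 over all genes tested. The organ labels matched the content: cardiomyocyte markers summed to 12045 to 19966 FPKM in hearts and at most 1.44 FPKM in kidneys, and proximal tubule markers to 4117 to 8617 FPKM in kidneys and 2.71 to 61.6 FPKM in hearts. Some libraries stood apart in content. Hearts RB031, RB033, RB034, RB035 and RB038 carried the atrial myosin light chain Myl7 at 151 to 784 FPKM, against 0.163 to 1.65 FPKM in the other 5. The sum of the 6 listed atrial markers did not split the hearts in the same way. It was 3069 FPKM in RB030, a heart low in Myl7, and 2926 FPKM in RB031. The remaining hearts low in Myl7 summed to 369 to 1007 FPKM. Kidneys RB037 and RB038 were highest in inner medulla and thin limb genes (up to 52.5 FPKM summed, against 4.62 to 8.34 FPKM with vehicle), and kidney RB039 in adipocyte genes (542 FPKM summed, against 14.9 to 25.4 FPKM with vehicle). In bulk samples, fewer cells of a type and less RNA per cell cannot be told apart.

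Heart and kidney differed in which of these genes they carried (plot of the levels of each gene). In the heart, Maoa stood first, followed by Adra1b, Adra1a, Adrb1, Adra1d, Maob, Adra2a and Adrb3, in the same order in both treatment groups. The ranges of Maoa and Adra1b did not overlap in either group, nor did those of Adra1b and Adra1a, or of Maob and Adra2a; Adrb1 and Adra1d were apart in the vehicle hearts and overlapped with MaR1. In the vehicle kidneys, Maoa, Adra1a, Adra1d and Maob came first, at means of 7.01, 6.99, 6.58 and 5.44 FPKM, and the ranges of neighbours among them overlapped, though those of Maoa (6.42 to 7.46 FPKM) and Maob (4.63 to 5.81 FPKM) did not. Adra1b followed at 3.69 FPKM (3.18 to 4.09 FPKM), apart from Maob and overlapping the lowest Adra1d value of 3.95 FPKM, and then Adrb1 and Adra2a at 1.55 and 1.23 FPKM. In the MaR1 kidneys, where Adra2a came before Adrb1, the ranges of all neighbours in the order of their means overlapped.

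**Figure D1:**
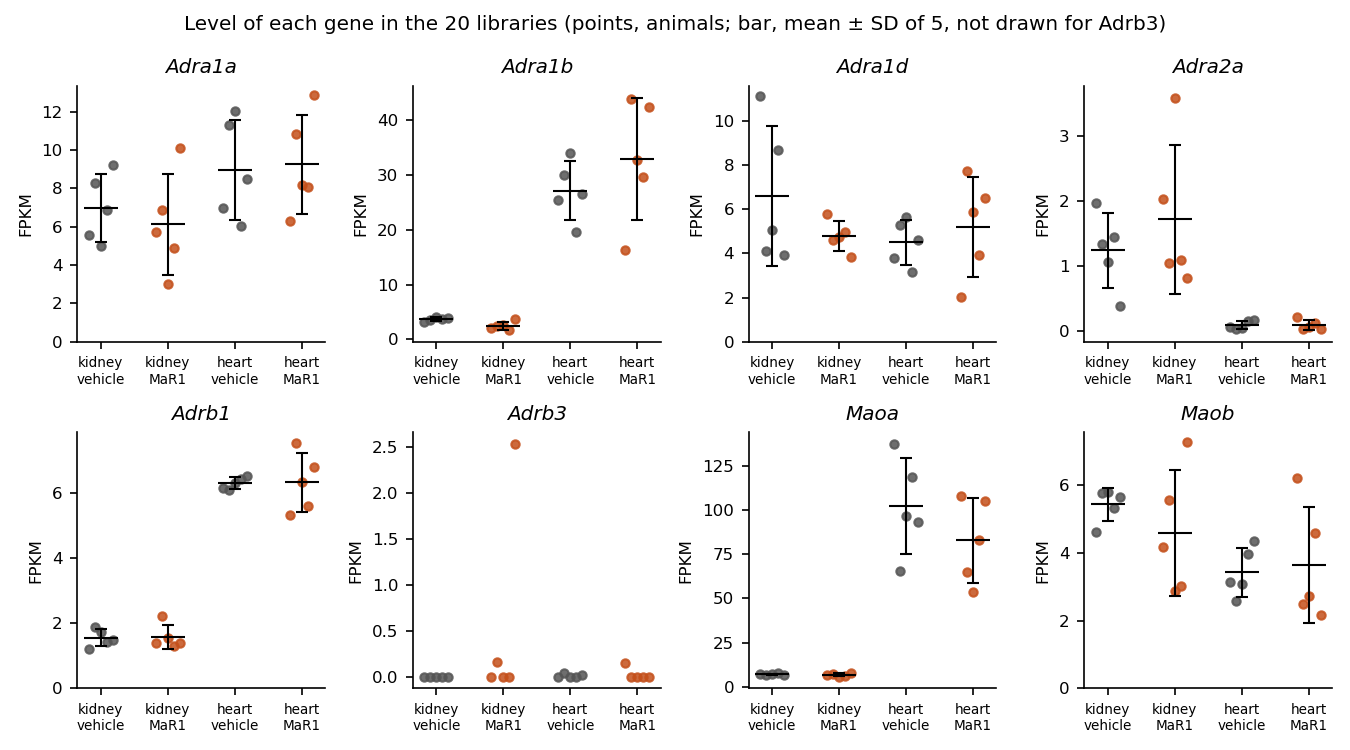
FPKM (vertical axis, linear, from about 0, a scale of its own per gene) of each gene in the 4 groups; points are animals and bars the mean ± SD of 5 (not drawn for Adrb3, listed at 0 in most libraries). Maoa, Adra1b and Adrb1 are higher in every heart than in any kidney, Adra2a is higher in every kidney than in any heart, and the vehicle and MaR1 points overlap in each panel.

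Maoa was far higher in heart, with the largest log2 difference among the 6 members past the level filter. In the vehicle hearts it stood at 137, 65.5, 96.8, 119 and 93.2 FPKM and in the kidneys of the same animals at 7.29, 6.42, 7.09, 7.46 and 6.77 FPKM. The MaR1 hearts gave 108, 64.7, 53.9, 83.1 and 105 FPKM and the MaR1 kidneys 6.85, 7.13, 5.64, 6.07 and 7.92 FPKM. The lowest heart thus lay far above the highest kidney. The ratio of heart to kidney was 14.6 for the group means with vehicle (10.2 to 18.9 in single animals) and 12.4 with MaR1 (9.09 to 15.8). On the scale of log2(FPKM + 0.5), kidney minus heart came to -3.74 ± 0.16 (SE) with vehicle (limma, adjusted p = 7.8e-10) and -3.49 ± 0.19 with MaR1 (adjusted p = 1.17e-08).

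Maob, its neighbour on the X chromosome, showed the opposite order at a smaller size. The vehicle kidneys gave 4.63, 5.76, 5.81, 5.33 and 5.65 FPKM and the vehicle hearts 3.15, 2.58, 3.09, 3.97 and 4.37 FPKM, with no overlap. The kidney was 1.58 times the heart for the means, and higher in 5 of 5 animals (log2 difference 0.61 ± 0.12, limma adjusted p = 0.000709). With MaR1 the organs overlapped, at 4.17, 5.56, 2.89, 3.02 and 7.29 FPKM in kidney and 6.22, 2.50, 2.74, 4.60 and 2.18 FPKM in heart. There the kidney was higher in 3 of 5 animals, and the difference did not pass (0.31 ± 0.30, 95% interval -0.34 to 0.97, adjusted p = 0.353). The ratio of Maoa to Maob FPKM ran from 1.11 to 1.57 in vehicle kidneys and 1.09 to 2.01 in MaR1 kidneys, and from 21.3 to 43.6 in vehicle hearts and 17.4 to 48.4 in MaR1 hearts.

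Among the alpha-1 receptors, Adra1b carried the difference between the organs. The alpha-1A and alpha-1B receptors are the alpha-1 subtypes known from cardiomyocytes. Adra1b stood at 25.5, 30.0, 34.0, 19.6 and 26.5 FPKM in vehicle hearts and 3.18, 3.51, 4.09, 3.80 and 3.87 FPKM in vehicle kidneys. In MaR1 animals it stood at 16.3, 43.9, 32.7, 29.7 and 42.4 FPKM in heart and 2.15, 2.47, 2.59, 1.69 and 3.69 FPKM in kidney. Every heart was above every kidney, which held for Maoa, Adra1b and Adrb1 of the 8 genes; ranges of the organs were apart for 65.9% of all tested genes with vehicle and 66.8% with MaR1. The heart mean was 7.36 times the kidney mean with vehicle (log2 kidney minus heart -2.70 ± 0.13, limma adjusted p = 1.92e-09) and 13.1 times with MaR1 (-3.43 ± 0.26, adjusted p = 2.33e-07).

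Adra1a, the gene of the alpha-1A receptor, and Adra1d, that of the vascular alpha-1D receptor, overlapped between the organs. Adra1a averaged 6.99 ± 1.78 FPKM (SD, n = 5) in vehicle kidneys, 8.97 ± 2.63 FPKM in vehicle hearts, 6.13 ± 2.63 FPKM in MaR1 kidneys and 9.25 ± 2.59 FPKM in MaR1 hearts. Its log2 difference, kidney minus heart, was -0.33 ± 0.21 with vehicle (limma adjusted p = 0.171). With MaR1 it was -0.61 ± 0.27, with the heart higher in 5 of 5 animals. That missed the threshold when the organs of the MaR1 animals were fitted alone (adjusted p = 0.0593) and passed in a model of all 20 libraries, both with the animal as block (adjusted p = 0.030) and without it (0.0368), with quantile scaling (0.0341) and without animal RB039 (0.0214). Adra1d averaged 6.58 ± 3.17 FPKM in vehicle kidneys and 4.50 ± 1.03 FPKM in vehicle hearts (0.42 ± 0.27, adjusted p = 0.170), and 4.79 ± 0.693 against 5.21 ± 2.26 FPKM with MaR1 (-0.01 ± 0.28, 95% interval -0.62 to 0.60).

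The make-up of the alpha-1 family differed by organ. The 3 genes summed to 40.6 ± 8.89 FPKM in vehicle hearts and 17.3 ± 2.39 FPKM in vehicle kidneys. Of the heart sum, Adra1b made up 67.1 ± 2.27%, Adra1a 21.8 ± 1.99% and Adra1d 11.1 ± 0.465% with vehicle. Of the kidney sum, Adra1a made up 41.0 ± 11.5%, Adra1d 37.1 ± 13.6% and Adra1b 21.9 ± 4.75%. The kidney shares varied widely between animals: kidney RB030 had Adra1d at 11.1 FPKM, kidney RB034 at 3.95 FPKM. With MaR1, Adra1b made up 69.3 ± 1.93% of the heart sum and 18.8 ± 4.22% of the kidney sum.

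Adrb1, the gene of the beta-1 receptor, was higher in heart than in kidney and of even level among the vehicle hearts. The vehicle hearts gave 6.14, 6.08, 6.29, 6.42 and 6.53 FPKM and the vehicle kidneys 1.22, 1.87, 1.74, 1.43 and 1.50 FPKM. The MaR1 hearts gave 5.32, 7.53, 6.33, 5.59 and 6.80 FPKM and the MaR1 kidneys 1.40, 2.23, 1.55, 1.31 and 1.39 FPKM. No heart overlapped a kidney. The heart was 4.06 times the kidney with vehicle (log2 kidney minus heart -1.74 ± 0.09, limma adjusted p = 5.47e-09) and 4.01 times with MaR1 (-1.72 ± 0.13, adjusted p = 2.26e-07).

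Adra2a, which encodes the alpha-2A receptor known for limiting noradrenaline release from nerve endings, was low in both organs and higher in kidney than in heart. It stood at 1.96, 1.34, 1.06, 1.44 and 0.372 FPKM in vehicle kidneys and at 2.03, 1.05, 3.58, 1.09 and 0.815 FPKM in MaR1 kidneys. The hearts gave 0.0244 to 0.205 FPKM, which rests on 2 to 20 fragments per library. Each kidney was above each heart, with ratios of the means of 14.1 for vehicle and 20.2 for MaR1, both loosely fixed given so few heart fragments. Its mean over both organs fell below the filter of 1 FPKM. Without that filter, kidney minus heart was 1.49 ± 0.24 with vehicle (limma adjusted p = 0.000259) and 1.80 ± 0.28 with MaR1 (adjusted p = 0.000251); 56.4% and 57.1% of the genes passed in those fits, 29.4% and 30.1% with the kidney higher.

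Of the 8 genes, 6 reached the level filter in the comparisons between organs. With vehicle 4 of the 6 passed (Maoa, Adra1b and Adrb1 higher in heart, Maob higher in kidney), where 77.0% of the 12978 genes tested passed (40.0% with the kidney higher, 37.0% with the heart higher). With MaR1 3 of the 6 passed, where 78.2% of 13006 genes passed (40.3% with the kidney higher, 37.9% with the heart higher). A called difference between the organs is thus the usual outcome in this table. The median absolute log2 difference over all tested genes was 0.66 with vehicle and 0.67 with MaR1, next to which Maoa, Adra1b and Adrb1 had larger ones. Adrb3 was at or near 0 in most libraries and is described below.

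**Figure D2:**
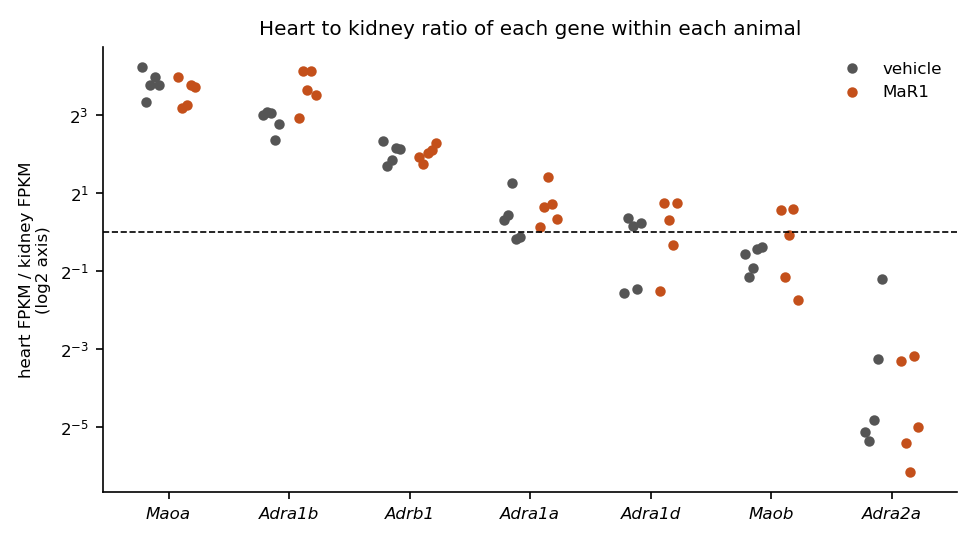
Ratio of heart to kidney FPKM within each animal (vertical axis, log2 scale; the dashed line is a ratio of 1) for 7 genes; points are animals, 5 per treatment, and Adrb3 is left out because it is at 0 in most libraries. Maoa, Adra1b and Adrb1 lie above 1 in each of the 10 animals and Adra2a below it, though its heart values rest on 2 to 20 fragments.

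The comparison of MaR1 with vehicle in the kidney asked whether the mediator goes with a different level of these genes on high salt. Adra1b was the member with the smallest p. Its 5 vehicle kidneys lay between 3.18 and 4.09 FPKM, and 4 of the 5 MaR1 kidneys lay below that range at 1.69 to 2.59 FPKM, with the fifth, RB039, inside it at 3.69 FPKM. The fragments behind these values numbered 199 to 276 with vehicle and 108 to 183 in the 4 low MaR1 kidneys. The group means were 3.69 ± 0.353 and 2.52 ± 0.743 FPKM (SD, n = 5). The log2 change was -0.50 ± 0.15 (95% interval -0.83 to -0.17), with an unadjusted limma p of 0.00648, which ranked 129 of the 12446 genes tested. It did not pass after adjustment over all genes (adjusted p = 0.621), nor did the exact permutation test of the means after adjustment over the 16 tests of 8 genes in both organs (p = 0.0238, adjusted p = 0.381; the smallest p 5 against 5 allows is 0.00794).

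No member passed in the kidney: 0 of 7 tested, where 0 of 12446 genes (0.0%) passed. An unadjusted p under 0.05 was reached by 1 of the 7 members and by 6.75% of all genes (840 genes with limma, 907 with voom on the recovered fragments). With the animal as block in a joint model of both organs, 6 genes passed in the kidney, none of them a member. The vehicle and MaR1 ranges overlapped for each of the 8 genes in both organs; they were apart for 1.23% of the genes tested in kidney and 0.842% of those tested in heart. Adra1d was at 6.58 ± 3.17 FPKM in the vehicle kidneys and 4.79 ± 0.693 FPKM in the MaR1 kidneys (-0.32 ± 0.25, limma adjusted p = 0.841), where vehicle kidneys RB030 and RB033, at 11.1 and 8.66 FPKM, set the difference apart from the other 8 kidneys at 3.84 to 5.77 FPKM. Maob was at 5.44 ± 0.488 and 4.59 ± 1.85 FPKM (-0.29 ± 0.21) and Adra1a at 6.99 ± 1.78 and 6.13 ± 2.63 FPKM (-0.24 ± 0.26). Adra2a was at 1.23 ± 0.581 and 1.71 ± 1.14 FPKM (0.30 ± 0.34). The closest intervals around 0 belonged to Maoa (-0.06 ± 0.09, 95% interval -0.25 to 0.13) and Adrb1 (0.01 ± 0.14, -0.29 to 0.31). Log2 changes were below 0 for 5 of the 7 members and for 6219 of the 12446 genes, and the members' median was -0.24 against 0.00 over all genes.

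**Figure D3:**
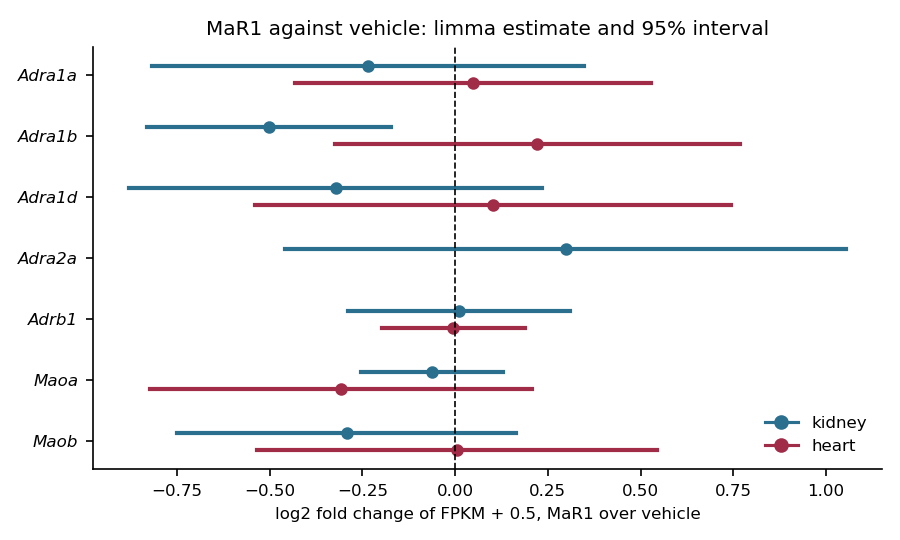
Log2 fold change of FPKM + 0.5, MaR1 over vehicle (horizontal axis; the dashed line is no change), as the limma estimate (point) with its 95% interval (line), for kidney and heart; Adra2a was below the level filter in heart. The interval of Adra1b in kidney (-0.83 to -0.17) is the one that leaves out 0, before adjustment over all genes.

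Maob and Adra1a were lowest or highest in kidneys that also stood apart in some tissue genes. Kidneys RB037 and RB038 were lowest in Maob (2.89 and 3.02 FPKM), and also lowest among the 10 kidneys in 3 proximal tubule transporter genes picked after their values were seen, Slc13a3 (213 and 215 FPKM, against 292 to 473 FPKM), Slc5a2 (70.3 and 63.1 FPKM, against 110 to 195 FPKM) and Slc22a6 (222 and 219.8 FPKM, against 309 to 501 FPKM). The same kidneys were lowest in Adra1a (3.03 and 4.90 FPKM), and Maob and Adra1a were highest in kidney RB039 (7.29 and 10.1 FPKM), which was also highest in Slc13a3 (473 FPKM). Without RB037 and RB038 the log2 changes turned to 0.11 for Adra1a, 0.05 for Maoa and 0.03 for Maob. That of Adra1b went from -0.50 to -0.38 (adjusted p = 0.999), and without RB039 alone to -0.63 (adjusted p = 0.0901). The list of 8 proximal tubule markers as a whole did not order the kidneys this way: its sum was 6747 FPKM in RB037, 8053 FPKM in RB038 and 6761 FPKM in RB039, and it overlapped between the groups (4117 to 8617 FPKM with vehicle, 6747 to 8053 FPKM with MaR1). Inner medulla and thin limb genes summed to 8.92 to 52.5 FPKM in the 5 MaR1 kidneys, above each vehicle kidney (4.62 to 8.34 FPKM), and adipocyte genes to 30.8 to 542 FPKM, also above each vehicle kidney (14.9 to 25.4 FPKM). Urothelium genes summed to 0.510 to 87.2 FPKM with MaR1 and 0.263 to 4.23 FPKM with vehicle. Vascular smooth muscle and mural genes summed to 108 to 179 FPKM with MaR1 and 92.0 to 159 FPKM with vehicle. At an unadjusted limma p under 0.05, 5 of 5 inner medulla genes tested, 4 of 4 urothelium genes, 2 of 7 adipocyte genes and 2 of 9 mural genes were higher with MaR1. Of the proximal tubule genes, 0 of 8 reached it. None of these genes passed after adjustment with limma. The part of tissue content in the values of the members was not tested.

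In the heart the same comparison gave no member past the test: 0 of 6 tested, where 0 of 12237 genes (0.0%) passed, with 563 genes at an unadjusted p under 0.05 (4.6%, none of them a member; 516 with voom). Maoa was at 102 ± 27.3 FPKM in the vehicle hearts and 83.1 ± 24.1 FPKM in the MaR1 hearts. Its log2 change was -0.31 ± 0.23, with a 95% interval of -0.82 to 0.21 and an unadjusted limma p of 0.214. Adra1b averaged 27.1 ± 5.35 and 33.0 ± 11.1 FPKM (0.22 ± 0.25), with 4 of 5 MaR1 hearts above the vehicle mean. The changes of Adra1d (0.10 ± 0.29), Adra1a (0.05 ± 0.22) and Maob (0.01 ± 0.24) were smaller than their errors. Adrb1 had the narrowest interval (-0.00 ± 0.09, -0.20 to 0.19). Each of these had an adjusted p of 1.00, and the median change of the 6 members was 0.03 against 0.01 over all genes.

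Heart values of the alpha-1 receptors varied more between animals than between treatments, and they varied together. Adra1b was lowest in hearts RB035 and RB033 (16.3 and 19.6 FPKM), as were Adra1a (6.31 and 6.05 FPKM) and Adra1d (2.01 and 3.17 FPKM). The cardiac myosin gene Myh6 was lowest in the same hearts (981 and 1242 FPKM, against 1308 to 2433 FPKM), and the collagen gene Col1a1 highest (408 and 287 FPKM, against 78.2 to 208 FPKM). Maob was highest in heart RB035 (6.22 FPKM), followed by RB038, RB034 and RB033 (4.60, 4.37 and 3.97 FPKM), each of which also carried atrial Myl7. The fifth heart with Myl7, RB031, had Maob at 2.58 FPKM, below hearts RB030, RB032 and RB037 without it (3.15, 3.09 and 2.74 FPKM). The part of tissue content in these values was not tested. Without the 5 hearts with Myl7, which leaves 2 vehicle and 3 MaR1 hearts, the log2 change was 0.41 for Adra1b, 0.48 for Adra1d, -0.68 for Maoa and -0.29 for Maob, with adjusted p-values of 0.672 to 0.722.

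**Figure D4:**
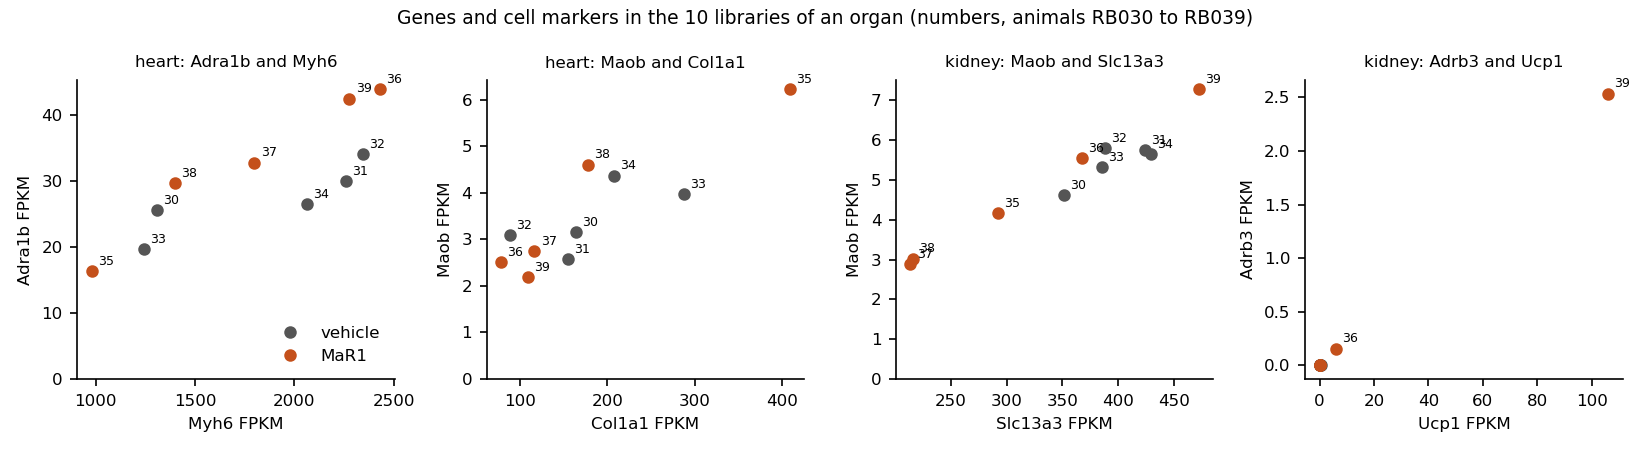
FPKM of Adra1b against Myh6 and of Maob against Col1a1 in the 10 hearts, and of Maob against Slc13a3 and Adrb3 against Ucp1 in the 10 kidneys; each point is a library, and numbers are the last digits of the animal's name (for Adrb3, only libraries above 0 are numbered). The marker genes for this plot were chosen after their values were seen; hearts RB035 and RB033 sit at the low end of both Myh6 and Adra1b, and kidneys RB037 and RB038 at the low end of both Slc13a3 and Maob.

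The estimates for Adra1b had opposite signs, below 0 in kidney and above 0 in heart. The difference of the responses, heart minus kidney, was 0.72 ± 0.30 (95% interval 0.09 to 1.36), with an unadjusted limma p of 0.0280. It did not pass after adjustment (adjusted p = 0.872), and 0 of the 12984 genes (0.0%) did, with 714 (5.5%) at an unadjusted p under 0.05. The other 5 members tested had differences of -0.24 to 0.42 with adjusted p-values of 0.990 to 0.997.

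Adrb3, the gene of the beta-3 receptor of fat cells, was listed at 0 in the 5 vehicle kidneys. Among MaR1 kidneys it stood at 2.54 FPKM in RB039 (151 fragments) and 0.158 FPKM in RB036 (9 fragments) and at 0 in the other 3. In hearts it was at 0.152 FPKM in RB035 (8 fragments), 0.0402 FPKM in RB031 (2 fragments), 0.0201 FPKM in RB034 (1 fragment) and 0 in the other 7. A library at 0 allows up to 3 fragments, or 0.0396 to 0.0701 FPKM. The kidneys with Adrb3 were those highest in fat genes. Adipoq, which encodes an adipokine, reached 120 FPKM in RB039, 13.2 FPKM in RB036 and 2.77 to 4.78 FPKM in the other 8 kidneys, and Ucp1, the uncoupling protein of brown fat, at 106, 5.93 and 0 to 0.442 FPKM. The lipid droplet gene Plin1 followed the same order, at 45.0, 5.80 and 0.0341 to 0.128 FPKM. The exact permutation test in kidney (p = 0.444, adjusted p = 0.914) could not decide whether Adrb3 differed. Only RB039 and RB036 were above 0, both with MaR1, and no other split of these values gives a smaller p. The part of the fat genes in the Adrb3 values was not tested.

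Both alpha-2 receptor genes outside the 8 had ranges that were apart between the organs. Adra2b, the alpha-2B receptor gene, was at 20.6 to 34.7 FPKM in kidneys and 0.187 to 0.723 FPKM in hearts, above every adrenergic receptor member in kidney (log2 kidney minus heart 5.01 ± 0.15 with vehicle, limma adjusted p = 3.05e-11). Adra2c was low in both, at 0.395 to 1.32 FPKM in hearts and 0.062 to 0.365 FPKM in kidneys, and did not reach the level filter.

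Other genes on the lists for catecholamine handling were called on both sides. The renalase gene Rnls was higher in kidney (1.06 ± 0.14, limma adjusted p = 2.4e-05), and Akr1b1, the gene of an aldehyde reductase, higher in heart (-3.68 ± 0.12, adjusted p = 5.55e-11). With vehicle, 3 of 5 tested genes on the breakdown list, Rnls among them, were higher in kidney and 2 in heart. Whether Rnls takes part in that breakdown was not tested. Of the 3 uptake genes tested, 2 were higher in kidney, among them the organic cation transporter gene Slc22a2 (7.50 ± 0.32). Of 4 synthesis genes tested, 3 were higher in kidney, such as Qdpr (2.53 ± 0.12), which recycles the cofactor of tyrosine hydroxylase, and 1 in heart, Gch1 (-1.96 ± 0.18), which starts the synthesis of that cofactor. The tyrosine hydroxylase gene Th reached at most 0.0686 FPKM and the noradrenaline transporter gene Slc6a2 at most 0.158 FPKM in any library, and 0 of 5 dopamine receptor genes passed the level filter. Adrenal genes summed to at most 3.65 FPKM in any library.

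Downstream of the receptors, the heart side held more of the called genes. With vehicle, 8 of 11 tested protein kinase A subunit and anchor genes were higher in heart and 1 in kidney, with Akap6 (-5.20 ± 0.11) and the inhibitor gene Pkia (-4.83 ± 0.14) the largest. Of 7 adenylyl cyclase genes, 5 were higher in heart and 2 in kidney, led by Adcy5 (-3.88 ± 0.10) and Adcy4 (-2.06 ± 0.16). Of 9 G protein genes, 4 were higher in heart and 1 in kidney (Gnao1 -3.10 ± 0.14, Gnai1 2.16 ± 0.13), and of 6 desensitisation genes 4 were higher in heart and 0 in kidney (the receptor kinases Grk5 -1.61 ± 0.12 and Grk2 -0.53 ± 0.07). Phosphodiesterase genes divided into 3 and 3 of 8, with Pde3a (-3.38 ± 0.17) and Pde4a (-2.27 ± 0.11) higher in heart. The genes of the alpha-1 arm divided into 5 higher in kidney and 4 in heart of 12, among the latter the regulators of G protein signalling Rgs5 (-4.04 ± 0.11) and Rgs4 (-3.31 ± 0.15). Of 7 cardiac targets of protein kinase A, 6 were higher in heart and 1 in kidney (Tnni3 -12.44 ± 0.15). That list was picked for genes of the heart, so its lean to the heart follows from the choice. Of 9 tested genes that cyclic AMP induces, 1 was higher in each organ (Btg2 -1.02 ± 0.17, Ppargc1a 0.58 ± 0.14), and of 6 nerve and glia genes 5 were higher in heart (such as Npy, -3.42 ± 0.33). These counts stand beside the 40.0% and 37.0% of all genes called in each direction.

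Between MaR1 and vehicle, 0 genes of these 14 lists passed in either organ or in the difference of responses. The smallest p among them in the kidney belonged to genes of the alpha-1 arm, which acts downstream of Adra1b. Plcb4, a phospholipase C gene, had a log2 change of 0.30 ± 0.08, with an unadjusted limma p of 0.00268 and an adjusted p of 0.588. Rgs5, a gene of mural cells of vessels, had one of 0.56 ± 0.16, with an unadjusted p of 0.00584 and an adjusted p of 0.621. Of the 11 genes of the alpha-1 list tested in kidney, 7 had values above 0 and 4 below, with a median of 0.09. Rgs5 is also among the 9 vascular smooth muscle and mural markers, of which 7 had values above 0 and 2 below, with a median of 0.36. The part of tissue content in the value of Rgs5 was not tested. In the heart, Plcb3 (0.24 ± 0.09), the receptor kinase gene Grk6 (0.21 ± 0.08) and Pde8a (0.26 ± 0.10) had the smallest p of their lists, with unadjusted limma p-values of 0.0210, 0.0256 and 0.0266 and adjusted ones of 1.00. In the difference of responses, Pde8a (0.38 ± 0.13) had an unadjusted limma p of 0.00978 and an adjusted p of 0.788.

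Genes whose log2(FPKM + 0.5) ran most like that of a member over the 10 libraries of 1 organ were found by Pearson's r, given as a description with no test. The libraries share their treatment groups and tissue content, and 11124 genes were searched in heart and 11288 in kidney. In heart, Adra1b ran closest to Macrod1 and Rbm38 (r = 0.991 for each), Adra1a to Kbtbd4 (0.974) and Hadh (0.973), Adrb1 to Tmem11 (0.941) and Kcng2 (0.938), and Maoa to Rnf24 (0.942) and Mks1 (0.932). In kidney, Maob ran closest to Acsf2 and Ces2h (0.987 for each), Adra1d to Reg3g (0.972) and Gata6 (0.971), and Adra2a to Afap1l1 (0.932) and Gpsm3 (0.926).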

How the data were processed

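The authors deposited 1 table of FPKM per gene for 20 libraries. Per the labels' protocols, messenger RNA was selected with poly-T beads; whether the libraries kept strand is not stated. Per the submitters' processing notes, the tools were fastp, HISAT2 2.0.5, StringTie 1.3.3b and featureCounts 1.5.0-p3.

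Multiplying each FPKM by the gene's length recovered fragment numbers, whole to within 0.01, for 100% of 371175 values above 0. The scale of analysis was log2(FPKM + 0.5); on it, fold changes of low genes come out too small. Genes whose mean reached 1 FPKM in the libraries of a fit entered limma 3.58.1 (R 4.3.3; trended variance, two-sided, Benjamini-Hochberg threshold 0.05), each organ alone, each treatment for the organ comparison, and all 20 libraries for the difference of responses. Single genes were compared by exact permutation of the means. The fits were also run on simulated data with the same spread setting for every gene and no difference in tissue content between animals. Such data cannot give the power or error rate of the treatment comparisons in these libraries. No 2 libraries of a group agreed within sampling noise (lowest chi-square per degree of freedom 9.68).

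Kidney and heart come from the same animal, per the labels, so the numbers pair the organs; MaR1 and vehicle groups share no animal. After group means were removed, same-animal correlations over 12984 genes ran from -0.02 to 0.14, with 2 of 10 above 0.1, and limma with statmod 1.5.0 estimated 0.0621.

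The 8 genes and the 26 lists (196 of 201 symbols matched, 97.5%) were chosen with earlier results of these data known. Named list genes were, per list and treatment comparison, the 2 of smallest p, and for the organs the 2 of largest difference past the threshold; Rnls, Adra2c, Th, Slc6a2 and the marker genes named were chosen after their values were seen. Some genes that this rule names are not reported here, though list counts include them. Where a symbol had 2 rows, the row of higher mean was used. The alternatives changed the pseudocount (0.1 and 1), the filter (none and 5 FPKM), the scaling, the model (voom), the animal as block, and libraries left out.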

Additional observations from a re-analysis of the deposited data

Results flagged for a closer look

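Of the 31 groups of values that had any spread (8 genes in 4 groups), 3 held a single library far from the other 4. Chance gives about 1 in 20 for values without ties. That rate does not hold for the Adrb3 groups below, where most values were 0. The library farthest out was kidney RB039 of the MaR1 group for Adrb3, at 2.54 FPKM, where 3 of the other 4 were at 0; it was also the kidney highest in Adipoq (120 FPKM) and Ucp1 (106 FPKM). Heart RB035 of the MaR1 group had Adrb3 at 0.152 FPKM, which is 8 fragments, with the other 4 at 0. Kidney RB036 of the MaR1 group had Adrb1 at 2.23 FPKM, against 1.31 to 1.55 FPKM in the other 4. Without it the log2 change of Adrb1 in kidney was -0.09.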

How the results depend on the processing

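The organ differences of Maoa, Adra1b and Adrb1 passed under each alternative that kept the gene, in both treatment groups, and that of Maob passed in the vehicle animals; a filter of 5 FPKM removed some members and gave no value for them. Leaving out 1 animal at a time gave 9383 to 9865 genes past the threshold between the organs with vehicle and 9565 to 9937 with MaR1, 0 in the heart treatment comparison, 0 to 1 in the kidney one, 0 to 3 for the difference of responses, and 0 of the 16 permutation tests. With the animal as replicate block in a joint model of both organs, 6 genes passed in kidney; the same model without the block, chosen after seeing the data, gave 7. Of the members, the joint model changed the call of Adra1a between the organs of MaR1 animals and no other, with the block (adjusted p = 0.030) and without it (0.0368, added after seeing the data). With a pseudocount of 0.1, 1 gene passed for the difference of responses.

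The log2 change of Adra1b in kidney ran from -0.63 to -0.38 over its 20 alternatives, with adjusted p-values of 0.0901 to 0.999. Members near 0 changed sign, and the cause was not tested. Without kidneys RB037 and RB038 (chosen after seeing the data) the kidney changes were 0.11 for Adra1a, 0.055 for Maoa and 0.030 for Maob. For Adrb1 in kidney, quantile scaling gave -0.032, leaving out the kidneys with urothelial genes (RB034, RB036, RB038 and RB039) gave -0.053, and leaving out 1 animal gave -0.094 to 0.064. In heart, Maob was at -0.0021 with a pseudocount of 0.1, -0.0052 with median-of-ratios scaling and -0.0013 with voom. Without the 5 hearts with Myl7 (chosen after seeing the data), Maob was at -0.29 and Adrb1 at 0.13. Leaving out 1 animal gave heart changes of -0.075 to 0.17 for Adra1a, -0.059 to 0.37 for Adra1d, -0.066 to 0.050 for Adrb1 and -0.19 to 0.14 for Maob. For the difference of responses of Adrb1, quantile scaling gave 0.013 and leaving out 1 animal -0.080 to 0.039. For Adra1d between the organs of MaR1 animals, a pseudocount of 0.1 gave 0.0055, voom 0.044, leaving out animals RB037, RB038 and RB039 0.32, and leaving out 1 animal -0.34 to 0.16. Over the members, 490 alternative values kept direction and call, 41 changed sign and 4 newly passed. Low depth limits Adra2a in heart (2 to 20 fragments) and Adrb3.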
